A study of Mus musculus with 24 samples.

Results

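The neurotrophins and their receptors were described in the mouse hippocampus through 6 genes, taken by name from a table of 21793: the ligand genes Bdnf and Ntf3, the Trk receptor genes Ntrk2 and Ntrk3, the p75 receptor gene Ngfr and the sorting receptor gene Sort1. All 6 were among the 14162 genes that passed the filter on low values. RNA was sequenced from the hippocampi of 24 female mice, fed 1 of 3 diets for 6 months from the age of 3 months. The 12 3xTg mice were of the 3xTg-AD line, a model of Alzheimer's disease whose human APP and MAPT transgenes are driven in neurons by Thy1 regulatory sequence. The 12 WT mice were of the B6129SF2/J strain, which stood as the comparison strain. The ketogenic diet (K) held no carbohydrate, supplied 6.7 kcal/g from 90% long-chain triglycerides with 10% protein, and was eaten by 5 3xTg and 4 WT mice. The MCT diet (M) supplied 4.1 kcal/g, its fat split into 10% medium-chain and 10% long-chain triglycerides beside 70% carbohydrate and 10% protein, and was eaten by 4 3xTg and 4 WT mice. The control diet (C) matched it in energy, carbohydrate and protein but held its fat as 20% long-chain triglycerides, and was eaten by 3 3xTg and 4 WT mice. Each library is named by genotype, diet and replicate number, so that 3xTg_K_2 is the second 3xTg mouse on the ketogenic diet.

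Neurotrophins are secreted growth factors that neurons make as precursors, which proteases cut to the mature form. Mature BDNF binds the receptor tyrosine kinase TrkB, the product of Ntrk2, and NT-3, the product of Ntf3, binds TrkC, the product of Ntrk3. The uncut precursors bind p75, the product of Ngfr, together with sortilin, the product of Sort1. In the hippocampus BDNF is made by excitatory neurons, dentate granule cells prominent among them, its transcription rises with neuronal activity, and signalling through TrkB takes part in long-term potentiation.

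The Bdnf locus (GENCODE M21 on GRCm38, chr2:109674700-109727007, plus strand) has 11 annotated transcripts, whose start sites lie before several alternative first exons. A gene-level count sums over all of them. The locus also overlaps the annotated antisense gene Gm45346, whose reads cannot be told apart from those of Bdnf unless strand was used in counting. RefSeq promoter windows on GRCm38.p6, which run from 250 bases before a start site to 50 bases after it, were at hand for 7 Bdnf start sites, 2 of Ntf3, 1 of Ntrk2 and 1 of Ngfr. Among these 11 windows only the third of Bdnf and the first of Ntf3 held any of the motifs searched on both strands, and they are shown because they come from the genes of both ligands. The capitals mark the match.
Bdnf, chr2:109692186-109692485, plus strand: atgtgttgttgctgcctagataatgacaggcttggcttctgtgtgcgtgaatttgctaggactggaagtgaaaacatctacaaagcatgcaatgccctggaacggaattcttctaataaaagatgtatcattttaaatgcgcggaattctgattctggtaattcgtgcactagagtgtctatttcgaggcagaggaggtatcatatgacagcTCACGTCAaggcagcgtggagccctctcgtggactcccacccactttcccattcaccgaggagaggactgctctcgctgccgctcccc
Ntf3, chr6:126166695-126166994, minus strand: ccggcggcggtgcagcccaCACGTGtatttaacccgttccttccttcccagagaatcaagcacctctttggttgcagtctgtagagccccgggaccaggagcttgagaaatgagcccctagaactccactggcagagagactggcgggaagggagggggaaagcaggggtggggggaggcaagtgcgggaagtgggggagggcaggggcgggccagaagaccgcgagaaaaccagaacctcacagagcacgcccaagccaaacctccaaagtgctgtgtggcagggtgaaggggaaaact
The Bdnf match, TCACGTCA at base -38 from the start site, is a variant of the cAMP response element (CRE), the motif of the CREB family of activity-regulated factors. It occurred in 1 of the 11 windows, and in 0.441% of 32851 windows of the same length over all genes. The full CRE, TGACGTCA, was in none of the 11 and in 1.79% of all windows. The core of the CRE, TGACG, lies within both of these motifs, was found in the same Bdnf window and was in 20.8% of all windows. The Ntf3 match, the E-box CACGTG at base -231, was in 7.15% of all windows. Such matches describe the letters of the windows and do not show that a factor binds there.

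Values are normalised counts, that is, reads assigned to a gene divided by 1 scaling factor per library. Assigned reads ranged from 10.1 to 25.8 M per library, except in 3xTg_K_2 with 2.65 M. The transgene cassette makes Thy1 a check of the genotype labels, as it was between 20385 and 29277 in 10 of the 3xTg libraries and between 6952 and 8137 in 11 of the WT libraries. Thy1 was at the level of the other genotype in the libraries labelled 3xTg_C_3 (9189), 3xTg_K_1 (8112) and WT_M_2 (23048). The dentate granule cell marker C1ql2 was from 208 to 346 in the 3xTg libraries other than 3xTg_C_3 (662) and 3xTg_K_1 (605). In WT it was from 611 to 857 in the libraries other than WT_M_2 (358). So C1ql2 also went against the label in the same 3 libraries, and whether they were swapped was not tested. Every result below keeps all labels as given, and calls that appear or are lost without these 3 libraries are given beside them. The markers fixed for dentate granule cells (5) and CA pyramidal cells (6) were all above the filter, which is what tissue labelled hippocampus holds. Of the pan-neuronal markers Snap25, Rbfox3 and Syt1, 1 was called in the comparison of genotypes averaged over diets, Rbfox3. It was at 2724 ± 158 in 3xTg and 3036 ± 111 in WT (SD, n = 12 each), a log2 difference of -0.15 ± 0.03 (SE; limma, adjusted p = 0.00289).

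The 6 genes spanned a wide range of abundance. Per kilobase of the union of annotated exons, and over all 24 libraries, Sort1 was the most abundant at 1362 ± 111 (SD) normalised counts per kb, followed by Ntrk2 at 501 ± 31.3. Bdnf was at 169 ± 29.2, Ntrk3 at 126 ± 12.1, Ntf3 at 60.3 ± 9.42 and Ngfr at 4.90 ± 1.59 normalised counts per kb. The union for Ntrk2 and Ntrk3 covers 19292 and 30170 bases of many alternative exons, which lowers their values per kb against genes with short unions such as Ntf3 at 1714 bases.

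**Figure D1:**
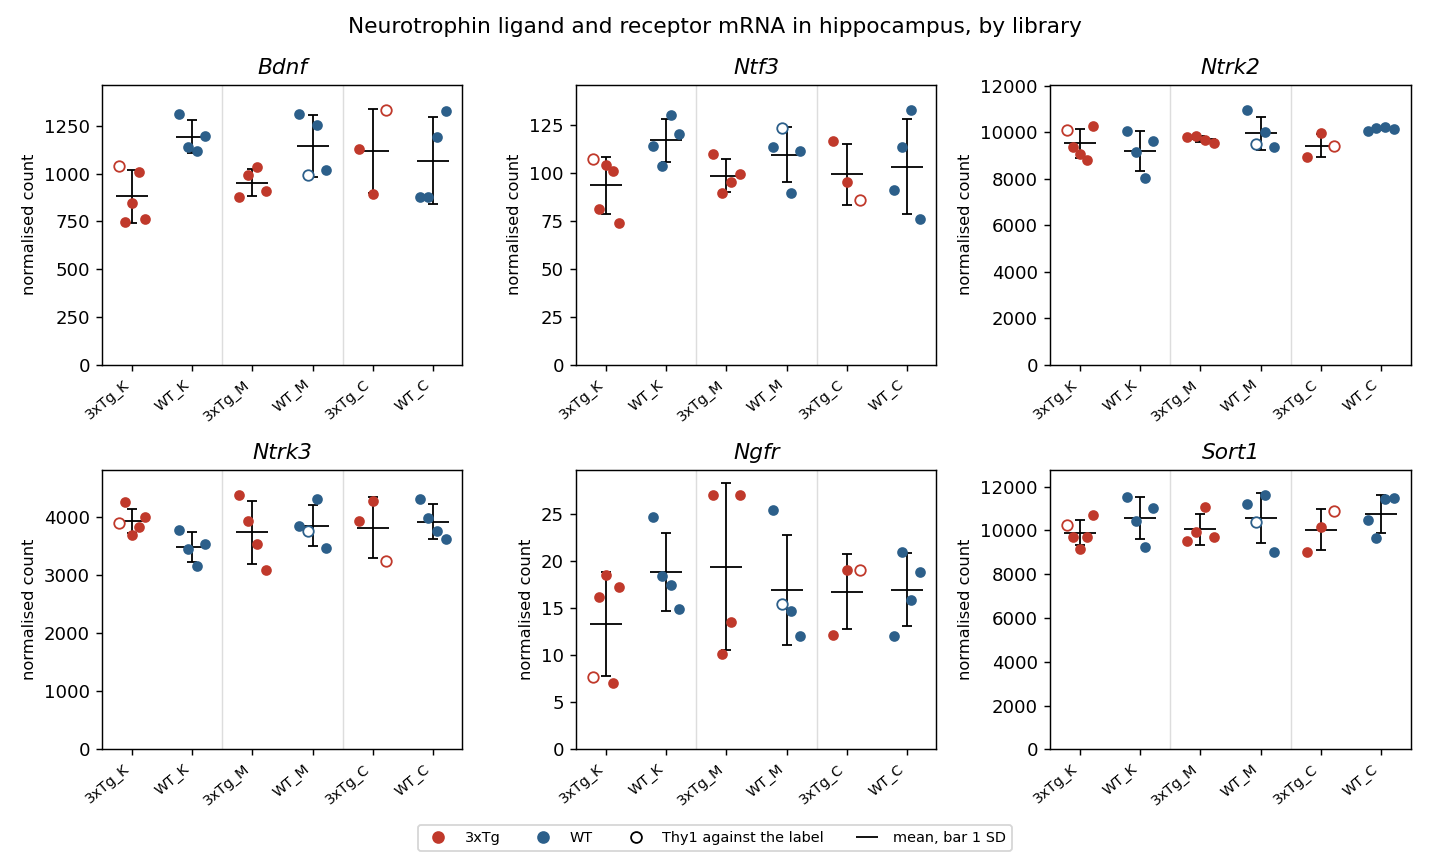
Normalised counts of the 6 genes in each of the 24 libraries (y axes, linear and from 0) by genotype and diet (x axes), with 3xTg in red, WT in blue, group means as lines and 1 SD as bars. Open circles are the 3 libraries whose Thy1 level went against the label. Bdnf in the 5 3xTg_K libraries (745 to 1039) lies below all 4 WT_K libraries (1120 to 1315).

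Bdnf was lower in 3xTg than in WT by its mean, by an amount that missed the threshold. Across diets it ranged from 745 to 1332 with a median of 952 normalised counts in 12 3xTg libraries, and from 877 to 1326 with a median of 1168 in 12 WT libraries. In 11 of the 12 3xTg libraries it was below the WT median, but 0 WT libraries were above all 3xTg libraries. The log2 difference of genotype averaged over diets was -0.21 ± 0.08 (SE; limma, adjusted p = 0.0947; 95% interval -0.37 to -0.05). A gene was called where its p, adjusted by Benjamini and Hochberg over all 14162 genes, was under 0.05. In this comparison 8.10% of all genes were called, and 0 of the 6 neurotrophin genes. At an unadjusted p under 0.05, limma, edgeR and DESeq2 each counted 1 of the 6, Bdnf, and neither edgeR nor DESeq2 called any at their adjusted p. Limma counted 3456 of the 14162 genes at that unadjusted threshold. Without the 3 libraries whose Thy1 went against the label, Bdnf was called, at -0.30 ± 0.08 (adjusted p = 0.0119), in a fit where 13.2% of all genes were called. Leaving out 3xTg_C_3 alone gave -0.26 (adjusted p = 0.0385, with 10.0% of all genes called).

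Of the 3 diets, the estimate for Bdnf was largest on the ketogenic one. Bdnf had 1039, 745, 848, 1010 and 763 normalised counts in 3xTg_K, against 1315, 1142, 1120 and 1199 in WT_K. All 5 3xTg_K libraries were below all 4 WT_K libraries, a separation that 4.30% of all genes showed in 1 direction or the other. The highest of the 3xTg_K libraries was 3xTg_K_1, whose Thy1 was at the WT level, and the lowest was the shallow 3xTg_K_2, where the value rests on 138 reads. Bdnf averaged 881 ± 137 in 3xTg_K (SD, n = 5) and 1194 ± 87.4 in WT_K (n = 4), a log2 difference of -0.45 ± 0.13 (SE; limma, adjusted p = 0.0996). None of the 6 genes was called here, where 0.155% of all genes were. The unadjusted p was under 0.05 for 2 of the 6 in limma, Bdnf and Ntf3, and for 1 in edgeR and in DESeq2, which called 0 of the 6. By limma it was under 0.05 for 2073 of the 14162 genes. Without the 3 libraries Bdnf was called, at -0.51 ± 0.12 (adjusted p = 0.0178), in a fit where 3.62% of all genes were called. Without 3xTg_K_1 alone the difference was -0.51 (adjusted p = 0.0390, with 2.30% of all genes called). With the shallow library and the choroid-rich library WT_C_1 also left out, 5 in all, it was -0.46 (adjusted p = 0.0599). WT_C_1 is in neither of the groups compared here. WT_K_1, also high in the choroid plexus gene Ttr (3921), had the highest Bdnf of WT_K. Without WT_K_1 alone the difference was -0.40 (adjusted p = 0.215), and without 3xTg_K_2 alone it was -0.39 (adjusted p = 0.250).

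On the MCT diet Bdnf had 878, 994, 1033 and 909 normalised counts in 3xTg_M, against 1311, 994, 1254 and 1021 in WT_M. These groups overlapped at their edges, with the lowest WT_M value in WT_M_2, whose Thy1 was at the 3xTg level. None of the 6 genes separated the genotypes on this diet, where 3.67% of all genes did. The log2 difference was -0.26 ± 0.13 (limma, adjusted p = 0.748), in a comparison where 0% of all genes, and 0 of the 6, were called. At an unadjusted p under 0.05 the count was 0 of 6 in limma and edgeR and 1 in DESeq2. Of all 14162 genes, limma counted 1008 there. On the control diet Bdnf had 1130, 893 and 1332 normalised counts in 3xTg_C, against 880, 877, 1194 and 1326 in WT_C. Both control groups covered nearly the same range, and the highest 3xTg_C library was 3xTg_C_3, whose Thy1 was at the WT level. The log2 difference was 0.07 ± 0.15 (limma, adjusted p = 0.862; 95% interval -0.23 to 0.37), and 0 of the 6 genes were called, against 0.0565% of all genes, with 0 at an unadjusted p under 0.05 by limma, edgeR or DESeq2. It turned to -0.07 ± 0.15 without the 3 libraries. With all libraries the unadjusted p by limma was under 0.05 for 2050 of the 14162 genes on the control diet.

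Whether the genotype difference itself changed with diet was tested by the interactions. For Bdnf the interaction of the ketogenic diet with genotype was -0.52 ± 0.19 (limma, adjusted p = 0.724; 95% interval -0.92 to -0.12), and that of the MCT diet was -0.33 ± 0.20 (95% interval -0.73 to 0.08), which was not called either. In both interactions 0% of all genes and 0 of the 6 were called. The unadjusted p was under 0.05 for 1 of the 6 in the ketogenic and for 0 in the MCT interaction by limma, edgeR and DESeq2 alike. By limma it was under 0.05 for 946 of the 14162 genes in the ketogenic and for 393 in the MCT interaction. Without 3xTg_C_3, the library with the highest Bdnf of its group and Thy1 at the WT level, the Bdnf interactions were -0.38 (ketogenic) and -0.19 (MCT). Without 3xTg_C_2, the lowest of its group, they were -0.67 and -0.48. Over all 37 alternatives they ranged from -0.67 to -0.31 (ketogenic) and from -0.48 to -0.17 (MCT), and 0 alternatives called them. The order of the group means was WT_K (1194), WT_M (1145), 3xTg_C (1118), WT_C (1069), 3xTg_M (954) and 3xTg_K (881), in which no neighbours differed by more than the larger of their SDs and all neighbouring ranges overlapped.

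**Figure D2:**
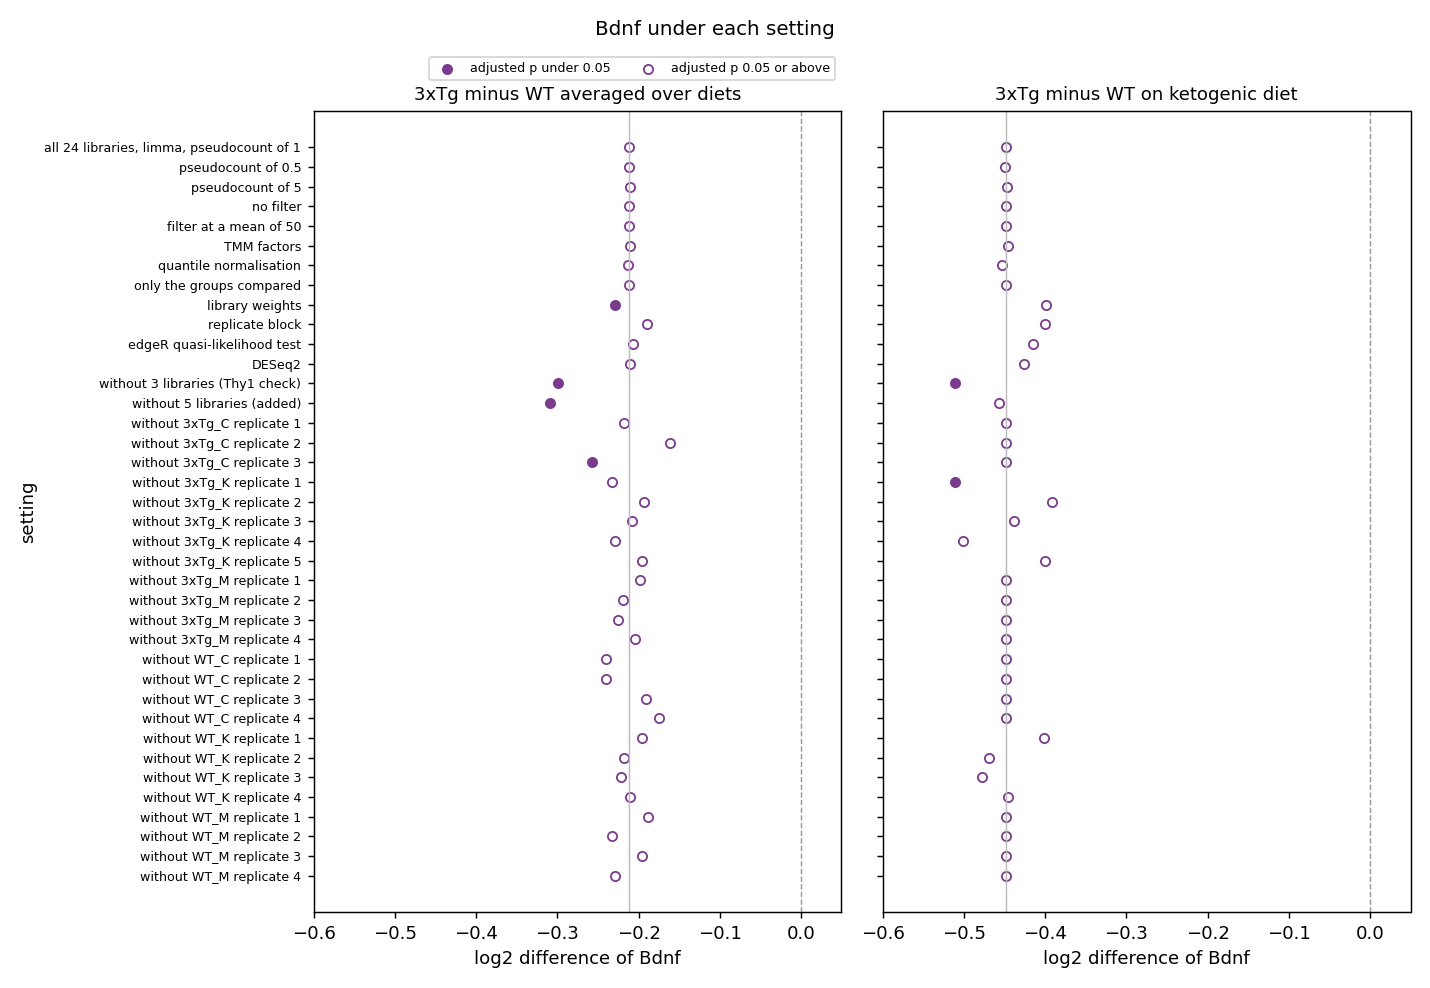
Log2 difference of Bdnf (x axes) under the main setting, in the top row, and 37 alternatives (rows), for 3xTg minus WT averaged over diets at left and on the ketogenic diet at right. Filled points have an adjusted p under 0.05, the grey line is the main value and the dashed line is 0. All points lie below 0, from -0.31 to -0.16 at left and from -0.51 to -0.39 at right, with 4 filled at left and 2 at right.

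Some markers of hippocampal excitatory neurons, which express Bdnf, differed between genotypes. Of 5 dentate granule cell markers (Prox1, C1ql2, Dsp, Lct and Calb1), 3 were called lower and 0 higher averaged over diets, beside 4.38% of all genes called lower and 3.71% called higher: C1ql2 at -1.10 ± 0.15, Lct at -0.70 ± 0.10 and Prox1 at -0.30 ± 0.05. Dsp (-0.01 ± 0.11) and Calb1 (0.06 ± 0.05) were not called. The summed level of the 5 ranged from 5959 to 7387 with a median of 6581 in 3xTg libraries, and from 6273 to 8659 with a median of 7501 in WT libraries. Of 6 CA pyramidal cell markers, Spink8 was called higher at 1.08 ± 0.20, and Cpne4 (-0.24 ± 0.05) and Wfs1 (-0.35 ± 0.08) were called lower, with a summed level from 6193 to 7214 in 3xTg and from 6730 to 7780 in WT libraries. Without the 3 libraries whose Thy1 went against the label, Amigo2 was called beside these, so that 2 of the 6 were called higher and 2 lower. In that fit 13.2% of all genes were called. The part of these markers in the Bdnf difference was not tested. In bulk tissue, fewer cells of a type and less RNA per cell cannot be told apart.

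Ntf3, which encodes NT-3 (chr6:126101412-126166910, minus strand), was also lower in 3xTg by its mean and was called in no comparison. It had 107, 81.0, 104, 101 and 74.0 normalised counts in 3xTg_K, against 114, 103, 130 and 121 in WT_K. The ranges overlapped, with the lowest WT_K library below 2 of the 3xTg_K libraries. The log2 difference on the ketogenic diet was -0.33 ± 0.15 (limma, adjusted p = 0.294). Ntf3 had 110, 89.7, 95.2 and 99.5 in 3xTg_M, against 113, 124, 89.4 and 112 in WT_M, and 117, 95.4 and 85.9 in 3xTg_C, against 90.9, 113, 133 and 76.2 in WT_C. On these diets the groups overlapped widely, and the log2 differences were -0.14 ± 0.15 (MCT; adjusted p = 0.932) and -0.04 ± 0.17 (control; adjusted p = 0.945). Averaged over diets Ntf3 differed by -0.17 ± 0.09 (adjusted p = 0.252), with 11 of 12 3xTg libraries below the WT median and 4 WT libraries above all 3xTg libraries. The interaction with the ketogenic diet was -0.29 ± 0.22 (adjusted p = 0.799). The Ntf3 group means were in the order WT_K (117), WT_M (109), WT_C (103), 3xTg_C (99.4), 3xTg_M (98.6) and 3xTg_K (93.6), and no neighbours differed beyond the larger SD.

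**Figure D3:**
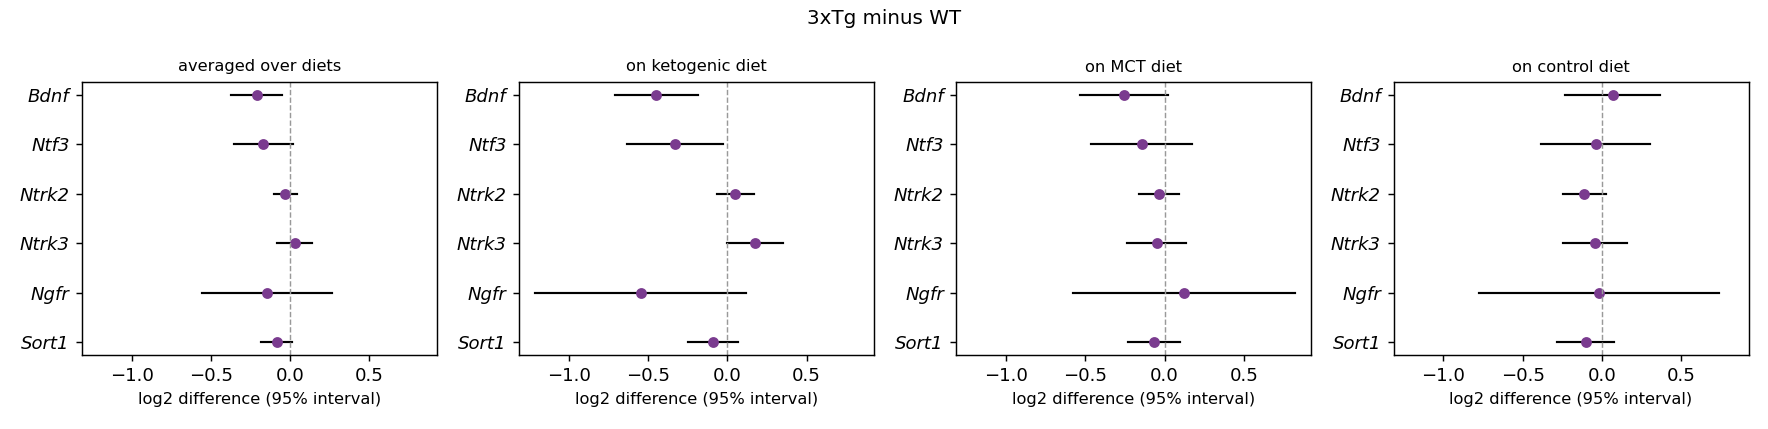
Log2 difference of each of the 6 genes, 3xTg minus WT (x axes), averaged over diets and on each diet, with points for the estimate, lines for the 95% interval and a dashed line at 0. The Bdnf interval lies below 0 averaged over diets (-0.37 to -0.05) and on the ketogenic diet (-0.71 to -0.19), and the Ngfr intervals are the widest.

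The Trk receptor genes varied less between libraries than their ligands. Ntrk2, which encodes TrkB, had a coefficient of variation of 6.26% over the 24 libraries, and Ntrk3, which encodes TrkC, of 9.59%, where Bdnf had 17.3% and Ntf3 15.6%. The ligands had fewer reads per library, 15 to 159 for Ntf3 and 138 to 1762 for Bdnf. Ntrk3 had 788 to 6977 and Ntrk2 1734 to 17384. Counting noise is larger at fewer reads, and its part in these coefficients was not tested. Ntrk2 had 10078, 9367, 9041, 8797 and 10259 normalised counts in 3xTg_K, against 10032, 9142, 8021 and 9598 in WT_K. It had 9785, 9809, 9649 and 9529 in 3xTg_M, against 10933, 9504, 10010 and 9357 in WT_M. The genotypes overlapped on both of these diets, at log2 differences of 0.05 ± 0.06 (ketogenic; limma, adjusted p = 0.731) and -0.04 ± 0.06 (MCT; adjusted p = 0.971). On the control diet Ntrk2 had 8928, 9948 and 9386 in 3xTg_C, against 10050, 10171, 10223 and 10137 in WT_C. All 3xTg_C libraries were below all WT_C libraries, which also held for 12.8% of all genes in 1 direction or the other. The log2 difference was -0.11 ± 0.07 (limma, adjusted p = 0.454). Averaged over diets it was -0.03 ± 0.04 (adjusted p = 0.643; 95% interval -0.10 to 0.04).

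Ntrk2 is spliced to a full-length kinase receptor in neurons and to truncated forms without the kinase domain, which are abundant in astrocytes, and a gene count does not separate them. The locus (chr13:58806569-59133970, plus strand) has 10 annotated transcripts and overlaps 4 other annotated genes, so that reads of these genes may be included. Of 5 astrocyte markers, 2 were called higher in 3xTg averaged over diets (Gfap and Slc1a3), beside 3.71% of all genes called higher. Of the other markers, Aqp4 averaged 2609 ± 213 normalised counts in 3xTg and 2407 ± 218 in WT (SD, n = 12 each). Gja1 averaged 3909 ± 242 in 3xTg and 3871 ± 295 in WT, and Aldh1l1 626 ± 44.4 in 3xTg and 648 ± 31.4 in WT. The summed level of the 5 markers ranged from 24526 to 26847 in 3xTg and from 21949 to 27737 in WT libraries. Their part in the Ntrk2 values was not tested.

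Ntrk3 had 3899, 4257, 3691, 3828 and 4003 normalised counts in 3xTg_K, against 3773, 3458, 3165 and 3546 in WT_K. The ranges overlapped through 3xTg_K_3 and WT_K_1 alone, and the log2 difference was 0.18 ± 0.09 (limma, adjusted p = 0.345), opposite in sign to those of Bdnf and Ntf3 on this diet. Ntrk3 had 4381, 3937, 3539 and 3099 in 3xTg_M, against 3854, 3770, 4323 and 3465 in WT_M, and 3939, 4278 and 3244 in 3xTg_C, against 4309, 3994, 3755 and 3621 in WT_C. On both diets the 3xTg values spread over the WT range, at log2 differences of -0.05 ± 0.09 (MCT; adjusted p = 0.972) and -0.04 ± 0.10 (control; adjusted p = 0.876). Averaged over diets the difference was 0.03 ± 0.05 (adjusted p = 0.805; 95% interval -0.08 to 0.14). The locus (chr7:78175959-78738012, minus strand) has 20 annotated transcripts, of kinase and truncated forms among others, and overlaps 4 other genes.

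Ngfr, which encodes p75 (chr11:95568818-95587735, minus strand), was close to the limit of what these libraries count, with 3 to 31 reads per library. It had 7.66, 16.2, 18.5, 7.06 and 17.3 normalised counts in 3xTg_K, against 24.7, 18.4, 17.5 and 14.9 in WT_K. The groups overlapped, the 2 lowest values of all 24 libraries were both in 3xTg_K, and the 16.2 of 3xTg_K_2 rests on 3 reads. The log2 difference was -0.55 ± 0.32 (limma, adjusted p = 0.444), with a 95% interval from -1.21 to 0.12. Ngfr had 27.0, 10.2, 13.5 and 27.0 in 3xTg_M, against 25.5, 15.5, 14.7 and 12.1 in WT_M, and 12.1, 19.1 and 19.1 in 3xTg_C, against 12.1, 21.0, 15.9 and 18.8 in WT_C. Averaged over diets the difference was -0.15 ± 0.20 (adjusted p = 0.708; 95% interval -0.56 to 0.26), an interval that holds both lower and higher values in 3xTg. In the forebrain p75 is known from cholinergic neurons of the basal forebrain, whose marker list held Chat, Slc18a3 and Slc5a7. Chat was at 0 in 12 and Slc18a3 in 14 of the 24 libraries, while Slc5a7 was at 0 in none, with 15.4 ± 2.77 in 3xTg and 16.1 ± 26.1 in WT (SD, n = 12 each), where WT_C_1 alone had 98.4. On the log2 scale Slc5a7 differed by 0.58 ± 0.27 averaged over diets (adjusted p = 0.180) and by 1.26 ± 0.43 on the ketogenic diet (adjusted p = 0.171). The summed level of the 3 ranged from 10.8 to 23.6 in 3xTg and from 2.75 to 141 in WT libraries, and its part in the Ngfr values was not tested.

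Sort1, which encodes sortilin (chr3:108284082-108361511, plus strand, overlapping 2 other annotated genes), had 10267, 9707, 9168, 9680 and 10698 normalised counts in 3xTg_K, against 11521, 10448, 9256 and 11025 in WT_K. It had 9526, 9923, 11091 and 9679 in 3xTg_M, against 11185, 10391, 11615 and 9027 in WT_M, and 9024, 10175 and 10902 in 3xTg_C, against 10477, 9661, 11424 and 11486 in WT_C. The genotypes overlapped on each diet, while 10 of 12 3xTg libraries were below the WT median and 5 WT libraries were above all 3xTg libraries. Averaged over diets the log2 difference was -0.09 ± 0.05 (limma, adjusted p = 0.263; 95% interval -0.18 to 0.01), and -0.11 ± 0.05 (adjusted p = 0.157) without the 3 libraries. The single-diet differences lay between -0.10 on the control diet and -0.07 on the MCT diet, each with an SE of 0.08 to 0.09.

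Neither diet moved any of the 6 genes past the threshold in either genotype. For the MCT diet against the control diet, 0 of 6 were called in 3xTg, where 0% of all genes were called, and 0 of 6 in WT, where 0.00706% were. None of the 6 had an unadjusted p under 0.05 in these MCT comparisons, and edgeR and DESeq2 also called 0. Of all 14162 genes, limma counted 378 in 3xTg and 679 in WT at that unadjusted threshold. Bdnf differed by -0.21 ± 0.15 in 3xTg (limma, adjusted p = 0.999; 95% interval -0.51 to 0.09) and by 0.11 ± 0.13 in WT (adjusted p = 0.994; 95% interval -0.16 to 0.39). The difference in 3xTg was -0.08 without 3xTg_C_3, whose Thy1 was at the WT level, and -0.37 without 3xTg_C_2. The difference in WT ranged from 0.03 to 0.22 as each library was left out. For the other 5 genes the estimates of the MCT difference lay between -0.03 and 0.11 in either genotype, with the widest intervals for Ngfr. The groups overlapped for all 6 genes in both genotypes, where 4.19% of all genes in 3xTg and 2.87% in WT did not overlap.

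For the ketogenic diet against the control diet, 0 of 6 were called in 3xTg and in WT, as were 0% of all genes in both. At an unadjusted p under 0.05, limma counted 948 of all 14162 genes in 3xTg and 654 in WT. At that threshold limma, edgeR and DESeq2 each counted 1 of the 6 in 3xTg and 1 of the 6 in WT. In 3xTg this was Bdnf in limma, at -0.34 ± 0.14 (adjusted p = 0.724), while in WT Bdnf differed by 0.18 ± 0.13 (adjusted p = 0.983). The difference of Bdnf in 3xTg was -0.20 without 3xTg_C_3 and -0.27 without the 3 libraries, and that in WT ranged from 0.09 to 0.29 as each library was left out. In WT it was Ntrk2 in limma, at -0.15 ± 0.06 (adjusted p = 0.983), and all 4 WT_K libraries were below all 4 WT_C libraries, as in 3.28% of all genes in 1 direction or the other. Ntrk3 in WT differed by -0.17 ± 0.09 (adjusted p = 0.983) and Ntf3 by 0.20 ± 0.15 (adjusted p = 0.983). These values share the control libraries with the MCT comparisons. The ketogenic diet against the MCT diet called 0 of 6 in 3xTg (0% of all genes) and 0 of 6 in WT (0.00706% of all genes), with Bdnf at -0.12 ± 0.13 in 3xTg and 0.07 ± 0.13 in WT, and with 0 at an unadjusted p under 0.05 by limma, edgeR or DESeq2. At that unadjusted threshold limma counted 486 of all 14162 genes in 3xTg and 505 in WT. The groups overlapped for all 6 genes in the ketogenic against control comparison in 3xTg (2.68% of all genes did not overlap) and in the ketogenic against MCT comparisons (0.974% did not in 3xTg and 1.94% in WT).

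**Figure D4:**
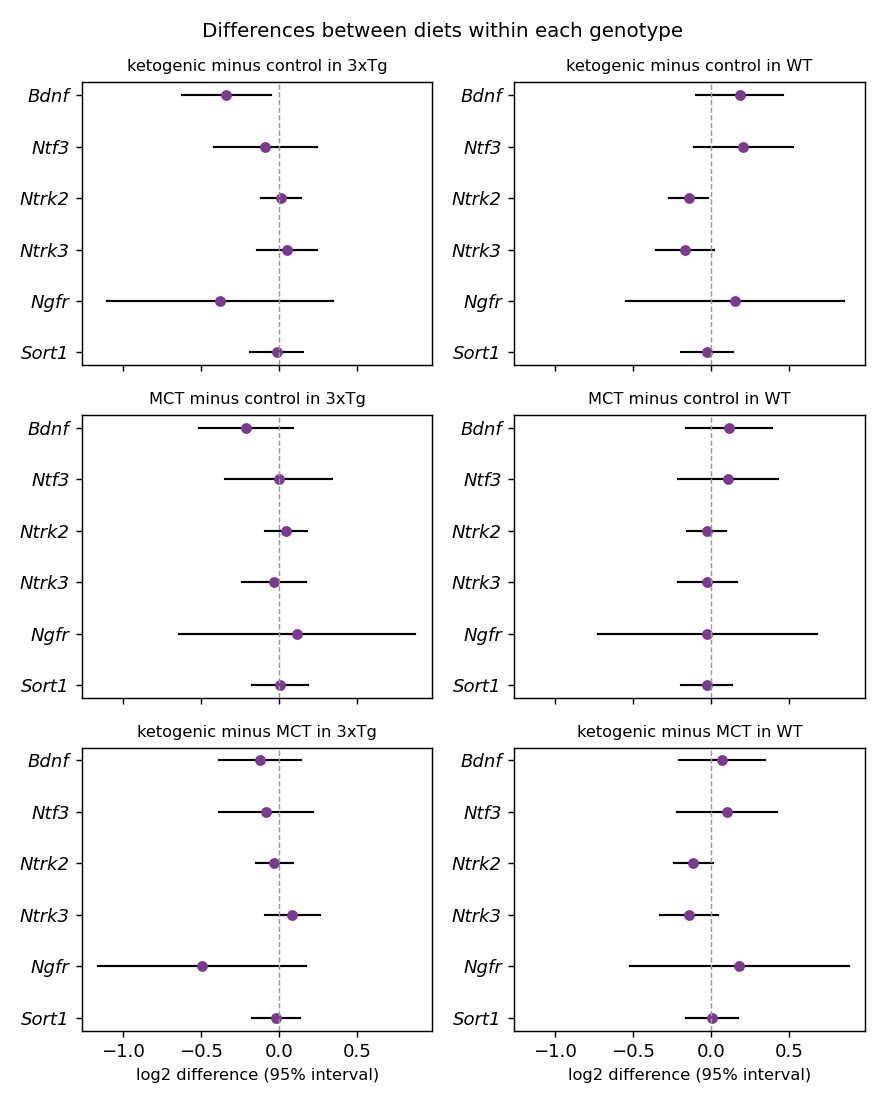
Log2 differences of the 6 genes between diets (x axes), within 3xTg in the left panels and within WT in the right panels, as estimates with 95% intervals and a dashed line at 0. Bdnf in 3xTg (-0.34 for ketogenic minus control) and Ntrk2 in WT (-0.15) have intervals that leave out 0, with adjusted p of 0.724 and 0.983, and the value for Bdnf in 3xTg was -0.20 without 3xTg_C_3.

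Ntf5, the gene of another TrkB ligand, was scarce and did not pass the filter. It lay between 0 and 3.82 normalised counts in 3xTg and between 0 and 4.48 in WT libraries and had at most 5 reads in any library.

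In the rest of the pathway, read from lists of genes, 5 genes were called in 3xTg minus WT averaged over diets, all 5 lower. Of all genes 8.10% were called there, 3.71% higher and 4.38% lower. The lists held 4 sorting receptors, 8 tested processing enzymes and 27 Trk adaptors and kinases. They also held 13 p75 partners, 13 Bdnf regulators and 12 genes induced by BDNF. The calls are not read as a trait of the pathway. Without the 3 libraries whose Thy1 went against the label, where 13.2% of all genes were called, calls in these lists went in both directions. The median log2 difference of all genes was -0.00082. The 4 sorting receptors related to Sort1 were all lower with a median of -0.13, and 0 were called: Sorl1, which sorts APP, was at -0.15 ± 0.05 (adjusted p = 0.0647) and Sorcs2 at -0.10 ± 0.05 (adjusted p = 0.173). Their median was -0.19 without the 3 libraries, and 2 of the 4 were then called lower, Sorl1 (-0.18 ± 0.06, adjusted p = 0.0392) and Sorcs1 (-0.27 ± 0.08, adjusted p = 0.0258). Of 9 enzymes of precursor processing, 8 were tested, 4 were higher and 4 lower, and 0 were called. Pcsk5 was at -0.17 ± 0.06 (adjusted p = 0.0912) and Furin, a convertase of the secretory pathway, at -0.10 ± 0.04 (adjusted p = 0.121). Pcsk5 was called lower without the 3 libraries (-0.21 ± 0.07, adjusted p = 0.0400).

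Of 27 adaptors and kinases downstream of Trk receptors, 12 were higher and 15 lower with a median of -0.01, and 2 were called, both lower. Gab1, a docking protein that recruits phosphoinositide 3-kinase, averaged 455 ± 37.8 normalised counts in 3xTg and 511 ± 51.3 in WT (SD, n = 12 each), a log2 difference of -0.17 ± 0.05 (limma, adjusted p = 0.0467). Shc3, a neuronal adaptor of Trk receptors, averaged 389 ± 40.2 in 3xTg and 451 ± 51.2 in WT, a difference of -0.20 ± 0.06 (adjusted p = 0.0488). Both sat just inside the threshold, Gab1 keeping the call in 17 and Shc3 in 20 of 37 alternative settings. Without the 3 libraries 2 of the 27 were called lower, again Gab1 and Shc3, and 2 were called higher, the phosphatase gene Ptpn11 (0.10 ± 0.03, adjusted p = 0.0446) and the adaptor gene Sh2b2 (0.43 ± 0.11, adjusted p = 0.0102). Of 13 partners of p75, 2 were higher and 11 lower with a median of -0.02, and 0 were called. Arhgdia, a partner of p75, was at -0.10 ± 0.03 (adjusted p = 0.0604) and the Nogo receptor gene Rtn4r at -0.10 ± 0.07 (adjusted p = 0.370). Arhgdia was called lower without the 3 libraries (-0.12 ± 0.04, adjusted p = 0.0420).

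Of 13 regulators of Bdnf transcription, 4 were higher and 9 lower with a median of -0.02, and 1 was called. Crebbp, a histone acetyltransferase and coactivator of CREB, averaged 1151 ± 112 normalised counts in 3xTg and 1299 ± 68.8 in WT, a log2 difference of -0.19 ± 0.05 (limma, adjusted p = 0.0132), and kept the call in 36 of 37 alternatives, losing it without 5 libraries (adjusted p = 0.0682). Of 12 genes known to be induced by BDNF, most of which neuronal activity also induces, 1 was higher and 11 were lower, with a median of -0.16. The 2 called were Egr1, an immediate early transcription factor, and Spry2, a feedback inhibitor of receptor tyrosine kinases. Egr1 averaged 1733 ± 204 in 3xTg and 2101 ± 375 in WT, a difference of -0.28 ± 0.07 (adjusted p = 0.0227). Spry2 averaged 584 ± 46.4 in 3xTg and 657 ± 54.4 in WT, a difference of -0.17 ± 0.05 (adjusted p = 0.0333). Egr1 kept the call in 35 and Spry2 in 24 of 37 alternatives, and Egr1 lost it without 3xTg_C_1 and without 3xTg_M_2. Without the 3 libraries, where 13.2% of all genes were called, 4 of the 12 were called, all lower: Egr1, Spry2, Vgf (-0.33 ± 0.08, adjusted p = 0.0120) and Npy (-0.30 ± 0.08, adjusted p = 0.0155).

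In every other comparison, the single-diet genotype comparisons included, limma called 0 genes of these pathway lists with all 24 libraries. It called 1 without the 3 libraries, Npy, lower in 3xTg on the ketogenic diet (-0.59 ± 0.13, adjusted p = 0.00913), where 3.62% of all genes were called.

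**Figure D5:**
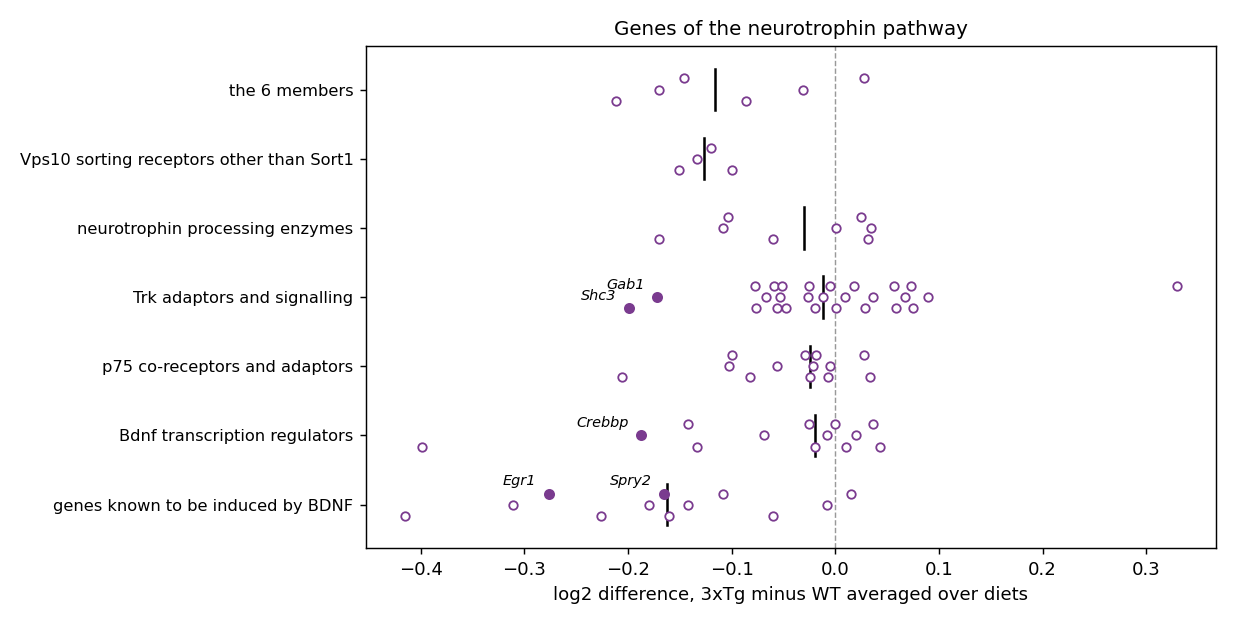
Log2 difference, 3xTg minus WT averaged over diets (x axis), of each tested gene in the neurotrophin lists (rows), with the 6 main genes in the top row. Filled points have an adjusted p under 0.05 and are named, and black ticks are list medians. All 5 filled points lie below 0, from -0.28 (Egr1) to -0.17 (Spry2).

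The library-to-library pattern of each gene was set against 12135 other genes by Pearson's r of log2 values over the 24 libraries, as a description that shares library and depth effects. Closest to Bdnf were Scg2 (r = 0.916), Npy (0.900) and Cap2 (0.868). Scg2 encodes a secretory granule protein and Npy a neuropeptide. After group means were taken away the closest were Tuba4a (0.935), Scg2 (0.899) and Npy (0.854), so that Scg2 and Npy were near Bdnf among libraries of the same group label as well. These include the 3 libraries whose Thy1 went against the label. Bdnf and Scg2 were both highest of their groups in 3xTg_C_3 and 3xTg_K_1 and lowest in WT_M_2, and r without these libraries was not computed. Ntf3 had no gene as close as Scg2 was to Bdnf, with Rack1 (0.751), Gpr34 (0.737) and Mrpl45 (0.709) first over the 24 libraries. Closest to Ntrk2 were Raph1 (0.849), Sik3 (0.835) and Slc6a17 (0.827), and to Ntrk3 Slc8a1 (0.802), Adgrl4 (0.792) and Lmbrd2 (0.782). Closest to Ngfr were Fn1 (0.771), Osbpl5 (0.762) and Csk (0.739), and to Sort1 Sez6l (0.928), Atp2b2 (0.918) and B4galt5 (0.906). Among the 6 genes themselves the highest r was that of Ntrk2 with Sort1 (0.620), then Bdnf with Sort1 (0.554), while Bdnf with its receptor gene Ntrk2 gave 0.07 and Ntf3 with its receptor gene Ntrk3 gave -0.23.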

How the data were processed

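The authors deposited 1 table of signal values, normalised read counts for 21793 genes in 24 hippocampal poly(A) libraries. Per the submitters' processing notes, reads were trimmed with Trimmomatic and aligned with STAR to GRCm38. For the gene counter, its strand setting, the annotation and the scaling tool, the sources used here give nothing. Dividing by the smallest step of a library gave whole reads for 100% of values (tolerance 0.01 reads). Genes with 10 or more normalised counts in at least 3 libraries were kept. The log2 of each value plus 1 entered limma 3.58.1 (R 4.3.3; 1 mean per group, prior variance by trend), with two-sided tests adjusted by Benjamini and Hochberg over the 14162 genes. All groups share the estimate of spread, which is that between mice. The ± on a log2 difference is its SE, and the ± on a mean level is the SD.

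Alternatives changed the pseudocount (0.5 or 5), the filter (none, or a mean of 50) and the scaling (TMM or quantile). Others fitted the compared groups alone, weighted libraries, blocked on replicate number, or used edgeR 4.0.16 and DESeq2 1.42.0 on recovered reads. Others left out the 3 libraries picked by Thy1, or each library in turn. A fit without 5 libraries was chosen after seeing the data. The fit averaged over diets was also run on simulated data, where every label was right and each change was the same on every diet. Such data cannot show how the fit fares in single-diet comparisons or with libraries against their label. The 6 genes, the lists and the tests were chosen with earlier results of these data known. Text names all 6 genes, Thy1, up to 4 called genes per pathway list (or the 2 with the smallest p as values), and the 3 genes most like each of the 6, among genes with a mean of at least 32 and no predicted-gene name. Labels give no batch. Depth was 10.1 to 25.8 M reads per library, with 2.65 M in 3xTg_K_2. Some items of the pathway and of the model are not reported here.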

Additional observations from a re-analysis of the deposited data

How the results depend on the processing

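No result of the 6 genes was called in the main setting. Bdnf was the exception under some alternatives. Averaged over diets, the number of the 6 called in 3xTg minus WT was 1 with library weights (Bdnf at -0.23, adjusted p = 0.0435, with 12.7% of all genes called), 1 without the 3 libraries whose Thy1 went against the label and 1 without 5 libraries (-0.31, adjusted p = 0.0107, with 12.2% of all genes called), and 0 to 1 when each library was left out in turn, with the 1 without 3xTg_C_3 (-0.26, adjusted p = 0.0385). On the ketogenic diet it was 1 without the 3 libraries and 0 to 1 when each was left out, with the 1 without 3xTg_K_1. The other alternatives gave 0. Bdnf stayed below 0 in both comparisons under all 37 alternatives, with adjusted p from 0.0107 to 0.209 averaged and from 0.0178 to 0.250 on the ketogenic diet. On the control diet its sign turned in 6 of 37. Ngfr did not pass the filter at a mean of 50, so the count over all 6 was not computed there.

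The deviations of same-numbered mice from their group means had r from -0.26 to 0.25 (55 pairs, median -0.00028, 11 pairs above 0.1). Of the 24 libraries, 6 were closest to their own number. The labels do not say that the numbers pair mice, and these values cannot show that the numbers mark no block. With a replicate block Bdnf was at -0.19 averaged over diets (adjusted p = 0.105) and -0.40 on the ketogenic diet (adjusted p = 0.127). Counts over all genes moved more: averaged over diets 1147 in the main setting and 576 to 1858 in the alternatives, on the control diet 8 and 0 to 246, on the ketogenic diet 22 and 0 to 511, on the MCT diet 0 and 0 to 283, the highest values without the 3 or 5 libraries. The diet comparisons and interactions had 0 or 1 in the main setting and 0 to 3 in the alternatives.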

Other observations

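The library WT_C_1 stood apart from the other WT_C libraries in genes of other tissue. It had 11390 normalised counts of Ttr, a choroid plexus gene, where the other 3 had between 41.2 and 286, and WT_K_1 had 3921. The cholinergic genes Chat (31.5) and Slc5a7 (98.4) were also highest of all 24 libraries in WT_C_1, where Chat was at most 2.20 in any other. Ngfr, known from cholinergic neurons of the basal forebrain, was at 12.1 in WT_C_1, the lowest of its group, a value that rests on 13 reads. Which cells the Chat and Slc5a7 reads of WT_C_1 came from was not tested.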
